A study of Oryza sativa with 8 samples.

Results

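Roots of the rice cultivar IR64 without a transgene were compared between P-deficient and P-fertilised soil. The plants were null segregants, which are offspring of a transformed line that did not inherit the 35S::OsPSTOL1 transgene, titled NT. The 2 arrays titled NT (-P) hold root RNA of plants in P-deficient soil at the heading stage, and the 2 arrays titled NT (+P) hold root RNA of mid-tillering plants from P-fertilised soil. These 4 arrays were taken by their titles from the 8 arrays of the series. The other 4 hold transgenic roots (T) of the same soils and stages, in which OsPSTOL1 is driven by the constitutive 35S promoter. All plants were grown in pots in a greenhouse. Soil and growth stage changed together, so every difference given here joins both and they cannot be told apart. The labels do not say how many plants, lines or transformation events stand behind a group. Of 57381 probe sets on the array, all 57194 that are not controls were considered.

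Phosphate is taken up by PHT1 transporters at the root surface and loaded into the xylem by PHO1 proteins. When cells have ample phosphate, SPX proteins bind inositol pyrophosphates and hold back the PHR transcription factors. When phosphate runs short, PHR factors are released and switch on uptake transporters, phosphatases, lipid-remodelling enzymes and several SPX genes themselves. Roots of flowering rice also differ from those of tillering plants in growth, since tillering plants still form new crown roots.

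The root label was set against its markers. Lsi1, the silicon channel of the root exodermis and endodermis, read 2015.2 and 2772 in P-deficient soil against 3870.3 and 3840.9 in P-fertilised soil. Some other markers of root cell layers were near the array's floor in P-deficient soil. OsCASP1, a scaffold of the Casparian strip, read 18 and 10.7 there against 516.7 and 429.1 in P-fertilised soil, and TIP2-1, a root vacuolar water channel, read 58 and 36.6 against 3225 and 3320.2. CSLD1, needed for root hairs, was low in both soils, at 13.9 and 25.1 against 40.7 and 32.9. The 6 root markers summed were Lsi1, Lsi2, OsCASP1, CSLD1, TIP2-1 and PHT1-11. Their summed signal was 2520.2 and 4385.6 in P-deficient soil against 10930 and 10039.5 in P-fertilised soil. The silicon efflux gene Lsi2 read 26.6 and 106.8 against 2418.2 and 2236.9. PHT1-11, a phosphate transporter gene, overlapped between the soils, with 388.5 and 1434.4 against 859.1 and 179.5. For 22 green-tissue genes the sums were 1372.8 and 1058.6 against 1137.2 and 1184.4. Signals above 100 were read for 5 and 3 of them against 3 and 4. The dimmest included LHCP, at no more than 3.8, and RBCS1, at no more than 5.4. Among brighter ones TPT read 286.9 and 342.1 against 516.3 and 526.5, and RBCS 116.7 and 91.4 against 84.6 and 114.7. PORB read 97.2 and 67.4 against 21.4 and 10.1, and PSAH 50.8 and 51.3 against 10.8 and 9.8. The sums of 6 panicle MADS-box genes were 178.6 and 178.1 against 105.1 and 88.3, and none of them read above 100. MADS14 read 87.4 and 97.6 against 24 and 14, while MADS6 lay between 2.3 and 2.7. The sums of 100 genes of dividing tissue were 12464.8 and 12546.4 against 20293.9 and 21737. In bulk roots, fewer cells of a type and less RNA per cell cannot be told apart.

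Summed intensity per array was 8449992 and 8802152 in P-deficient soil against 8191089 and 8330147 in P-fertilised soil. RNA integrity was read from control genes, as signal at the 3-prime end over signal at the 5-prime end. This ratio was 1.15 and 1.21 against 1.61 and 1.94 for one GAPDH pair and 2.63 and 5.08 against 3.76 and 10.5 for the other. The actin ratio was 12.7 and 15.3 against 7.28 and 6.65. The part of RNA integrity in the results was not tested. Across probe sets, log2 signals correlated at 0.972 between the P-deficient replicates and at 0.988 between the P-fertilised replicates. P-deficient replicate 1 correlated more closely with a transgenic array of the same soil (0.983) than with its own replicate. Between the soils the correlation was 0.875 to 0.885. These values run across genes, which are not independent replicates.

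Across the array, 34316 probe sets passed a filter on low signals and were tested with limma on the log2(signal + 32) scale. In null segregant roots 11166 of them differed between the soils at an adjusted p below 0.05, which is 32.5%. Of these, 5303 (15.5%) were higher and 5863 (17.1%) lower in P-deficient soil. More than 4-fold differences were found for 622 of the higher and 914 of the lower probe sets. Read as genes, each by its probe set with the highest mean, 6778 of 16166 differed (41.9%), 3060 higher (18.9%) and 3718 lower (23%). The counts of the gene lists below are to be read against these shares of all genes. The median difference over all genes was -0.01, but every array had been scaled to the same trimmed mean, so differences are relative to that scaling and a shift of the overall level cannot be seen. All log2 differences given are P-deficient over P-fertilised soil, with the standard error of the fit. Each group held 2 arrays, and the p-values measure the spread between replicates pooled over the 4 groups of the series. The 2 P-deficient values of a gene lay above both P-fertilised values in 35.6% of all genes, and below both in 37.5%, so such a separation alone is common here. Leaving out P-fertilised replicate 1 reduced the calls to 7234 probe sets, and leaving out P-fertilised replicate 2 reduced them to 6821.

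Genes with a name from the literature were ranked if they passed the test and the arrays of the soils did not overlap. The 12 largest rises were led by genes of dehydration tolerance and sugar transport. RAB16B, a dehydrin induced by abscisic acid (ABA), read 3993.8 and 5883.1 in P-deficient soil against 80.2 and 12.7 in P-fertilised soil, and rose by 6.11 ± 0.45 (adjusted p = 3.57e-05). SWEET12, a sugar efflux carrier, read 2340 and 2637.5 against 11.6 and 7, and rose by 5.93 ± 0.15 (adjusted p = 3.84e-07). In both genes the P-deficient arrays lay far above the P-fertilised arrays, which were dim. RAB25, another ABA-responsive gene, read 1747.1 and 1474.2 against 3 and 3.7. EM, a late embryogenesis abundant (LEA) protein gene known from seeds, read 2578 and 2236.9 against 53.8 and 53.1. The seed-type antioxidant gene R1C-Prx, for a 1-Cys peroxiredoxin, read 1805.2 and 1264.8 against 25.3 and 23.4. PM19L1, for a membrane protein induced by drought and ABA, rose by 4.79 ± 0.75. SUS4, a sucrose synthase gene, rose by 4.75 ± 0.24, and RFS, for raffinose synthase, rose by 4.53 ± 0.20. The other members of the 12 were PDHE1-A, ELA3, OsNrx2 and OsPP2C59, which rose by 5.76, 5.54, 4.79 and 4.78.

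The 12 largest falls were led by cell wall and transport genes. PRX74, for a secreted class III peroxidase, read 4.8 and 0.5 in P-deficient soil against 2491.5 and 2645.1 in P-fertilised soil, a fall of 6.23 ± 0.40 on the log2 scale (adjusted p = 1.9e-05). EXPB2, for a beta-expansin that loosens grass cell walls, read 4.7 and 3.2 against 1650.6 and 1812, with a difference of -5.61 ± 0.30. At signals this low the added 32 sets the size of the difference, so these values understate the change. A further 3 beta-expansins stood in the group, EXPB6 (-5.35), EXPB7 (-4.78) and EXPB3 (-4.63). The remaining members were TIP2-1 (-5.39), the nicotianamine synthase gene NAS1 (-4.98), ILL3 (-4.98), CPDK2 (-4.90), the Casparian-strip-like gene OsCASPL1U3 (-4.85), the sugar carrier SWEET1A (-4.82) and the silicon efflux gene Lsi2 (-4.71). A second probe set of SWEET1A differed by only -0.84, and the second of TIP2-1 by -4.34. Among genes with a locus identifier but no name, LOC4344438 and LOC4345287 had the largest rises (6.90 and 6.73). LOC4326500 and LOC4326716 had the largest falls (-6.33 and -5.79). The probe sets of LOC4344438 and LOC4326716 may also match other genes.

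**Figure D1:**
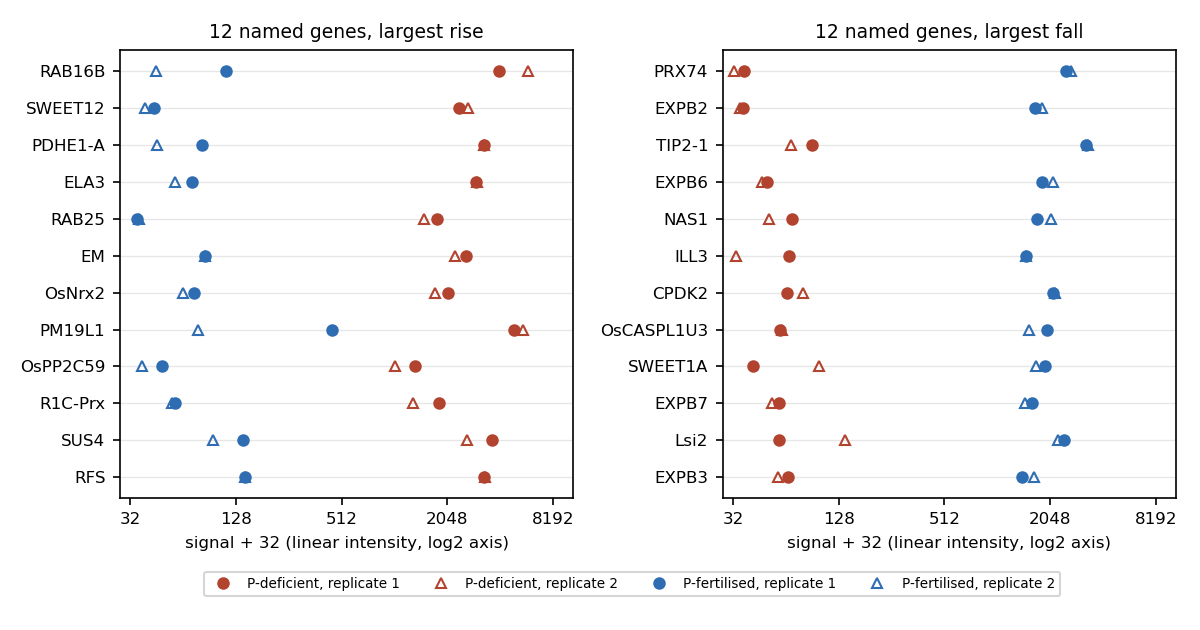
Signal plus 32 on a log2 axis for the 12 named genes with the largest rise (left) and the largest fall (right), 1 point per array of null segregant roots, with circles for replicate 1 and triangles for replicate 2. Genes were taken only if the P-deficient and P-fertilised arrays did not overlap, so their separation follows from the choice. RAB16B and PM19L1 show P-fertilised replicate 1 above replicate 2.

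Phosphate sensing genes rose more often than they fell in P-deficient soil. All 8 SPX and PHR genes read by the array passed the filter, 5 rose and 1 fell, with a median difference of 1.36. SPX5 read 1311.4 and 1444.9 in P-deficient soil against 184 and 105.8 in P-fertilised soil, and rose by 3.03 ± 0.23 (adjusted p = 4.39e-05). SPX3 read 362.3 and 504.7 against 25.4 and 18.7, a rise of 3.09 ± 0.26 (adjusted p = 6.66e-05). Both encode SPX-domain proteins that dampen the phosphate starvation response. SPX2 read 344.3 and 473 against 96.1 and 78.5 (1.87 ± 0.20, adjusted p = 0.000242). SPX1, the inhibitor of PHR2 in the nucleus, read 1577 and 2549.5 against 1064.4 and 633.4 (1.25 ± 0.31, adjusted p = 0.0145). SPX4 was the member that fell, with 96.7 and 115.2 against 173.3 and 165.1 (-0.55 ± 0.18, adjusted p = 0.0458), while its second probe set differed by -0.19. SPX4 holds PHR2 in the cytosol when phosphate is ample.

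The PHR genes, which encode the MYB factors that switch on the response, differed less. PHR3 read 268.6 and 67.8 in P-deficient soil against 41 and 22.2 in P-fertilised soil, and rose by 1.46 ± 0.44 (adjusted p = 0.0339), with P-deficient replicate 1 well above replicate 2. PHR2, the main regulator in rice, read 345.4 and 330.2 against 437.8 and 370.2 (-0.23, adjusted p = 0.313), and PHR1 read 218.3 and 231.9 against 226.8 and 205.4 (0.05, adjusted p = 0.822). Neither passed the test, and the second probe set of PHR2 differed by -0.69. Without P-fertilised replicate 2 only 3 of the 8 genes rose, and SPX4 did not pass when any array of the null segregants was left out. PHR3 passed among these only without P-deficient replicate 2. SPX1 did not pass without P-deficient replicate 2 (adjusted p = 0.0748) or without P-fertilised replicate 2 (adjusted p = 0.109). The probe set of SPX4 is of the kind whose probes may also match other genes.

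The PHT1 transporters went both ways. Of 9 genes on the array, 8 passed the filter, 3 rose, 1 fell and the median difference was 0.58, against 0.14 without P-deficient replicate 2 and 0.29 without P-fertilised replicate 2. PHT1-4 (also called OsPT4) read 471.7 and 611 in P-deficient soil against 134.3 and 132.5 in P-fertilised soil, a rise of 1.78 ± 0.18 (adjusted p = 0.000158). PHT1-6, known for uptake and movement of phosphate through the plant, read 224.6 and 387.4 against 51.4 and 43.2 (2.05 ± 0.32, adjusted p = 0.00158). PHT1-8 read 2189.4 and 2206.5 against 1523.3 and 845.9 (0.93 ± 0.26, adjusted p = 0.027). PHT1-2, a low-affinity transporter of the root stele, moved the other way. It read 292.5 and 565 in P-deficient soil against 2253.1 and 1592.8 in P-fertilised soil, a difference of -2.13 ± 0.30 (adjusted p = 0.00101).

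The remaining PHT1 genes did not pass. PHT1-11 is expressed in rice roots that host mycorrhizal fungi. It read 388.5 and 1434.4 in P-deficient soil against 859.1 and 179.5 in P-fertilised soil, so its replicates lay further apart than the soils. PHT1-1 read 575.9 and 916.3 against 650.6 and 716.1 (adjusted p = 0.785), while its second probe set differed by -1.12. PHT1-3 and PHT1-12 read at most 55.4 on any of these arrays, and PHT1-7 stayed below the filter. The probe sets of PHT1-3, PHT1-4 and PHT1-8 may also match other genes, so paralogs could contribute to them. PHT1-8 did not pass when either P-deficient replicate or P-fertilised replicate 2 was left out.

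PHO1-2, the main gene of phosphate loading into the rice xylem, was lower in P-deficient soil. It read 306.3 and 347.8 there against 1799.1 and 1610.8 in P-fertilised soil, with a difference of -2.27 ± 0.16 (adjusted p = 3.47e-05). Its 2 other probe sets differed by -0.33 and -0.09, so the probe sets of this gene disagreed. PHO1-3 read 38.8 and 59.7 against 49.6 and 45.1 and did not pass (adjusted p = 0.936).

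Of 8 phosphatase, lipid-remodelling and LPR genes, 7 passed the filter, 2 rose and 1 fell (median 0.42). MGD2, a synthase of galactolipids that can stand in for phospholipids, read 219.9 and 258.1 in P-deficient soil against 28.1 and 35.4 in P-fertilised soil (2.09 ± 0.22, adjusted p = 0.000211). PLD1, a phospholipase D gene, read 3228.8 and 3638.1 against 1894.6 and 2151.8 (0.75 ± 0.14, adjusted p = 0.00345). LPR4, of the multicopper oxidase family that takes part in root growth at low phosphate in Arabidopsis, fell to 5 and 1.7 against 56.7 and 80.3 (-1.50 ± 0.19). MGD3 (0.52, adjusted p = 0.0597) and LPR1 (-0.59, adjusted p = 0.0605) did not pass. Both passed without P-deficient replicate 2 (adjusted p = 0.0426 and 0.0482), which gave 3 rises and 2 falls, and both passed without either P-deficient transgenic array. Among 10 genes of inositol phosphate and phytate synthesis, 4 rose and 2 fell (median 0.12). Lpa1, named for its low phytic acid mutant, rose by 1.14 ± 0.17, INO1, which makes inositol phosphate from glucose phosphate, rose by 0.89 ± 0.16, and IPK1 rose by 1.24 ± 0.31. ITPK4 and ITPK3, inositol phosphate kinase genes, had differences of -0.89 ± 0.14 and -0.80 ± 0.22. Leaving out either P-fertilised replicate left 2 rises in the inositol phosphate list, with IPK1 at adjusted p = 0.0639 and 0.1. IPK1 rose by 0.67 without P-deficient replicate 1, and ITPK3 did not pass without P-deficient or P-fertilised replicate 2 (adjusted p = 0.0908 and 0.166).

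**Figure D2:**
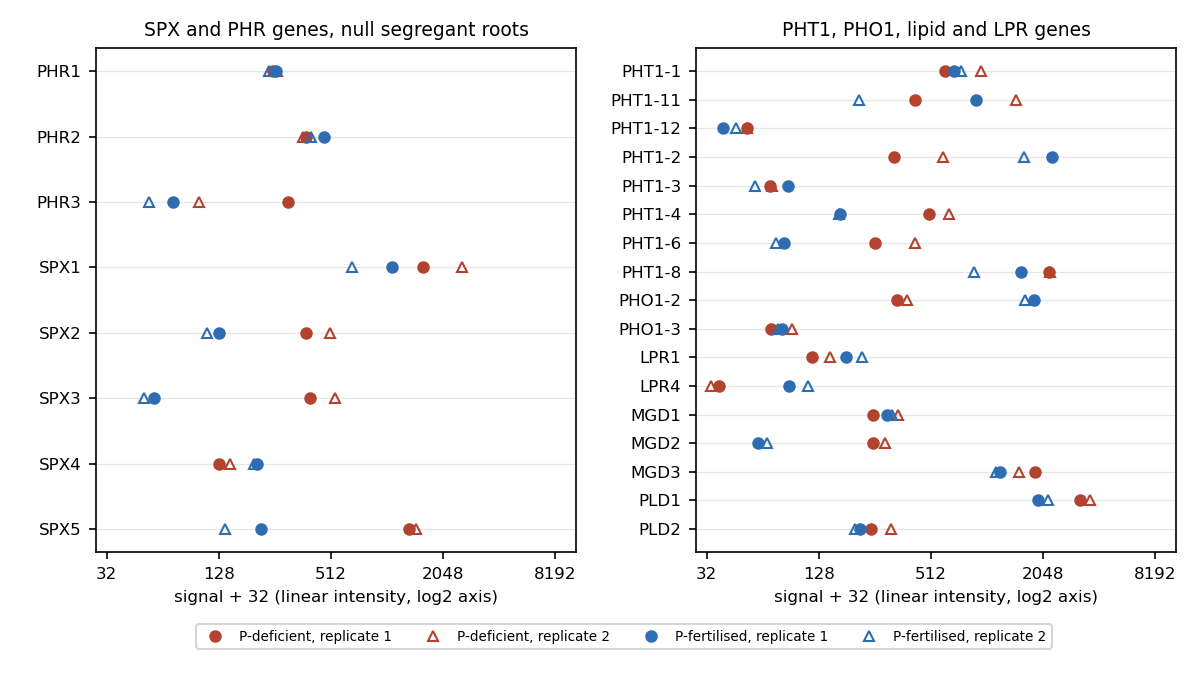
Signal plus 32 on a log2 axis for the SPX and PHR genes (left) and the PHT1, PHO1, galactolipid, phospholipase D and LPR genes (right), 1 point per array of null segregant roots. SPX2, SPX3, SPX5, PHT1-4, PHT1-6 and MGD2 lie to the right in P-deficient soil, PHT1-2, PHO1-2 and LPR4 to the left, and the arrays of the soils overlap for PHR1 and PHT1-11.

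Iron genes fell more often than they rose in P-deficient soil. Rice takes up iron as ferrous ion and as a chelate with deoxymugineic acid, which is made from nicotianamine. Of 29 genes on the array 24 passed the filter, 12 fell, 2 rose and 10 did not pass, with a median of -0.46. Falls made up 50% and rises 8.33%, against 23% and 18.9% of all genes. The synthases of nicotianamine fell most. NAS2 read 55.9 and 47.2 in P-deficient soil against 1234.2 and 1455 in P-fertilised soil (-4.04 ± 0.29, adjusted p = 3.45e-05), and NAS1 read 37 and 19.6 against 1689.3 and 2030.9. NAAT1, the aminotransferase of the next step, read 22.7 and 27.6 against 339.3 and 558.7 (-3.04 ± 0.26). YSL15, the carrier of the iron chelate at the root surface, read 124.5 and 124.4 against 793.4 and 869.9 (-2.46 ± 0.16, adjusted p = 2.16e-05), and YSL6 had a difference of -1.55 ± 0.14. Genes of both synthesis and uptake of the chelate were thus among those that fell. TOM1, which exports deoxymugineic acid, read 2333.9 and 2476.4 against 2492.2 and 2403.9 and did not pass (adjusted p = 0.891). It was looked up after its values were seen, as were the 2 iron genes that rose, YSL13 (1.59 ± 0.22) and VIT2 (0.98 ± 0.18), a vacuolar iron carrier.

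Transporters of copper, zinc and manganese were split. Of 27 genes 24 passed the filter, 10 fell and 6 rose (median -0.46). Falls made up 41.7% and rises 25%, against 23% and 18.9% of all genes. COPT1, a copper importer, read 48.8 and 47.8 in P-deficient soil against 2023.7 and 1782.6 in P-fertilised soil (-4.59 ± 0.19, adjusted p = 2.65e-06). ZIP1 read 46.8 and 109 against 1784 and 1496.9 (-3.98 ± 0.29). NRAMP1 read 50 and 23.3 against 580.5 and 618.3 (-3.23 ± 0.23). HMA5, a copper-loading ATPase of the xylem, had a difference of -2.02 ± 0.17. The clearest rise was that of MTP3, of the cation diffusion facilitator family, with 1128.5 and 1107.6 against 447.6 and 473.5 (1.22 ± 0.13, adjusted p = 0.000276). Leaving out P-fertilised replicate 1 left 6 of the 10 falls.

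The 3 silicon transport genes all fell. Rice accumulates silicon through the influx channel Lsi1 and the efflux carrier Lsi2 on opposite faces of the root cell layers. Lsi2 read 26.6 and 106.8 in P-deficient soil against 2418.2 and 2236.9 in P-fertilised soil (-4.71 ± 0.36, adjusted p = 4.25e-05). Lsi6, which unloads silicon from the xylem, read 44 and 33.1 against 941.4 and 1259.1 (-3.99 ± 0.20, adjusted p = 6.29e-06). Lsi1 fell far less, by 0.70 ± 0.17 on the log2 scale (adjusted p = 0.0126), and did not pass without either P-fertilised replicate.

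Nitrogen genes fell more often than they rose. Of 23 genes 10 fell and 6 rose, with a median of -0.63, against -0.26 without P-fertilised replicate 1 and -0.31 without P-deficient replicate 1. Falls made up 43.5% and rises 26.1%, against 23% and 18.9% of all genes. GLN1-2, a cytosolic glutamine synthetase of ammonium assimilation, read 203 and 459 in P-deficient soil against 3402 and 3608.4 in P-fertilised soil (-3.38 ± 0.34, adjusted p = 0.00016). GLN2, the plastid enzyme, read 37.7 and 51.4 against 407.6 and 341.9 (-2.41 ± 0.21). The ammonium transporter gene AMT2-2 fell by 1.27 ± 0.14. Glutamate dehydrogenase genes, whose enzyme can release ammonium from glutamate, went both ways. The gene named GDH read 143.2 and 175 against 1184.7 and 1096.4 (-2.62 ± 0.16), while GDH2 read 1125.7 and 789 against 176.9 and 191.5 (2.17 ± 0.23). The 2 other probe sets of GDH2 differed by 0.39 and 0.88. Leaving out P-fertilised replicate 1 left 6 of the 10 falls.

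Potassium and sodium transport genes were balanced, with 8 rises and 7 falls among 24 genes past the filter of 28 (median 0.11). These shares were 33.3% and 29.2%, against 18.9% and 23% of all genes. HAK16, a potassium transporter, read 482.5 and 392 in P-deficient soil against 24.3 and 15.7 in P-fertilised soil (3.17 ± 0.17, adjusted p = 8.42e-06). KCO2, a potassium channel gene, read 338.8 and 178.8 against 32.3 and 35.2 (2.09 ± 0.26). HAK3 rose by 1.24 ± 0.14 and HAK25 by 1.65 ± 0.22. AKT1, the inward potassium channel of root epidermis, fell to 148.7 and 182 against 539 and 636.7 (-1.65 ± 0.17, adjusted p = 0.000176). There were 4 rises and 4 falls without P-fertilised replicate 2, and without P-deficient replicate 2 there were 5 rises.

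Aquaporins, the water channels of plasma membrane and vacuole, fell more often than they rose in P-deficient roots. Of 21 aquaporin genes 19 passed the filter, 8 fell, 1 rose and 10 did not pass (median -0.48). The median was -0.23 without P-deficient replicate 1 and -0.77 without P-deficient replicate 2. PIP2-4 read 18.7 and 61.4 in P-deficient soil against 438.8 and 630 in P-fertilised soil (-3.02 ± 0.32, adjusted p = 0.00023), and PIP2-5 read 23.5 and 53.9 against 228 and 449.6 (-2.36 ± 0.33). PIP2-6 read 311.5 and 578.4 against 2395.2 and 2653.8 (-2.48 ± 0.28). PIP2-2 had a difference of -3.02 ± 0.27, with a second probe set at -0.67. The gene that rose was TIP3-1, a vacuolar channel known from seeds, with 687.9 and 538.1 against 33.4 and 29.2 (3.34 ± 0.22, adjusted p = 2.31e-05).

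Sugar carriers rose more often than they fell in P-deficient soil. Of 18 genes 16 passed the filter, 8 rose and 2 fell (median 0.70). SWEET15, a carrier of the same clade as SWEET12 that is known from seed filling, read 186.5 and 236.1 in P-deficient soil against 0.8 and 0.3 in P-fertilised soil (2.89 ± 0.16, adjusted p = 9e-06). The sucrose transporter gene SUT4 read 1359.8 and 1235.5 against 325.3 and 448.7 (1.68 ± 0.18), and SUT2, which exports sucrose from the vacuole, rose by 0.86 ± 0.15, although its second probe set differed by -0.59. SWEET1A went the other way, with 9.4 and 66.7 against 1876.9 and 1671.7. Leaving out either P-fertilised replicate left 4 of the 8 rises.

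Within sucrose and starch metabolism, members of the same enzyme family moved in opposite directions. Of 30 genes 25 passed the filter, 10 rose and 8 fell (median 0.31). SUS4 read 3617 and 2608.3 in P-deficient soil against 108.5 and 62.8 in P-fertilised soil (adjusted p = 7.2e-06), while SUS5, another sucrose synthase gene chosen after its values were seen, read 25.4 and 12.3 against 166.8 and 156.4 (-1.94 ± 0.17). The cell wall invertase genes CIN7 and CIN2 fell. CIN7 read 42.8 and 57.1 against 451.4 and 489.9 (-2.62 ± 0.19), and CIN2 read 2.4 and 10 against 175.1 and 245.5 (-2.66 ± 0.21). SSI, for a soluble starch synthase, rose by 2.54 ± 0.21, with 429.2 and 376.3 against 52.7 and 33.3. SPP1, for the phosphatase that completes sucrose synthesis, rose by 1.80 ± 0.16. Of 7 trehalose phosphatase genes past the filter 2 fell, TPP4 (-1.95 ± 0.22) and TPP2 (-1.41 ± 0.26), and 0 rose. These falls, 28.6%, were near the 23% of all genes.

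ABA-linked genes made up one of the lists with the largest share of rises. All 23 genes passed the filter, 16 rose (69.6%) and 3 fell, with a median of 1.61. Besides RAB25, EM and RAB16B, ABA8OX2, an ABA-degrading hydroxylase gene, read 560.9 and 608.9 in P-deficient soil against 58.4 and 65.5 in P-fertilised soil (2.72 ± 0.16, adjusted p = 1.22e-05). SAPK1, a kinase gene of the SnRK2 family activated by osmotic stress, read 928.7 and 807.3 against 53.7 and 71 (3.26 ± 0.19, adjusted p = 1.28e-05). The kinases did not move as one, since SAPK3 (-1.38 ± 0.18), SAPK5 (-1.18 ± 0.17) and SAPK8 (-0.67 ± 0.19) were the 3 genes that fell. These 3 were picked out after their values were seen.

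The P-fertilised replicates lay apart for several dehydrins. RAB16D read 6010.2 and 6375.8 in P-deficient soil against 947.8 and 63 in P-fertilised soil, RAB21 read 4917.6 and 5664.1 against 844.7 and 56.8, and LEA19 read 3748.3 and 4943.4 against 457.7 and 44.7. P-fertilised replicate 1 was thus far above replicate 2, yet below both P-deficient arrays. In these 3 genes, chosen after their values were seen, the rises were 4.35 ± 1.06, 4.25 ± 1.10 and 4.48 ± 0.78 (adjusted p = 0.0144, 0.0187 and 0.0029). RAB16B to RAB16D and RAB21 are close relatives, and their probe sets may read more than 1 of them. Probe sets that may also match other genes were likewise those of OsNrx2, TIP2-1, CPDK2, Lsi6, AKT1, HAK3, TIP3-1, PIP2-2, ABA8OX2, LEA19, LOGL1, GAMYB and MT2A. Without P-fertilised replicate 2, 12 genes of the list rose.

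Heat shock genes rose in P-deficient soil for 16 of 31 genes past the filter of 32, and 4 fell (median 0.57). HSP16.9A, a small heat shock protein that keeps other proteins soluble, read 1600.3 and 1553.4 in P-deficient soil against 47.6 and 37 in P-fertilised soil (4.44 ± 0.16, adjusted p = 1.23e-06). HSP17.9A read 2097.4 and 2338.6 against 496.7 and 558.7 (2.01 ± 0.14). The heat shock factor genes HSF05 and HSF03 read 390.7 and 252.9 against 16.1 and 14.6, and 718.4 and 704.3 against 81.7 and 77.3, with rises of 2.87 ± 0.20 and 2.74 ± 0.19. HSF25 was lower, with 115.3 and 161.3 against 1576.5 and 1191.1 (-3.06 ± 0.23), while its second probe set differed by -0.54. Without P-fertilised replicate 2 there were 2 falls.

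Genes of diterpenoid phytoalexins, the momilactones, phytocassanes and oryzalexins with which rice answers fungi, were higher in P-deficient soil. Of 15 genes 14 passed the filter, 12 rose (85.7%) and 0 fell, with a median of 2.13. The cyclases of the first step rose. CPS2 read 1067.2 and 1950.6 in P-deficient soil against 45.9 and 29.5 in P-fertilised soil (4.41 ± 0.35, adjusted p = 5.44e-05), and CPS4, of the momilactone cluster, read 374.9 and 693 against 21.1 and 17 (3.41 ± 0.31). Second-step cyclases rose as well, KSL7 with 352.6 and 479.2 against 22.9 and 23 (3.01 ± 0.18, adjusted p = 1.38e-05, with a second probe set at 1.09) and KSL10 with 200.4 and 123.3 against 1.1 and 0.6 (2.53 ± 0.27). The oxidase gene CYP99A3 read 650 and 1001.3 against 98.9 and 89.9 (2.73 ± 0.30). In transgenic roots the same 14 genes had a median of 1.26.

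Chitinases, which cut fungal walls, rose in 6 of 9 genes past the filter of 10, and 0 fell (median 0.57). Cht1 read 386.1 and 590.2 in P-deficient soil against 70.6 and 69 in P-fertilised soil (2.32 ± 0.22, adjusted p = 0.000126), Cht4 read 56.1 and 73.7 against 0.3 and 0.1, and Cht5 read 106.8 and 64.9 against 11.4 and 5.7. Cht9 (0.48 ± 0.12) and Cht2 (0.60 ± 0.17) rose least of the 5 described and had high signals in both soils. Leaving out P-fertilised replicate 1 left 3 of the 6 rises. Cht9 did not pass without either P-fertilised replicate, and Cht2 did not pass without replicate 1 of either soil. After quantile normalization Cht9 rose by only 0.15 and did not pass (adjusted p = 0.25). Without a filter Cht9 and Cht2 did not pass (adjusted p = 0.0564 and 0.0538). With the 4 null segregant arrays alone they did not pass either (adjusted p = 0.065 and 0.069). Regulators of defence gave 4 rises and 2 falls among 13 genes (median 0.14). PBZ1, a PR10 protein gene, read 3366.6 and 4399.3 against 770.5 and 455.6 (2.63 ± 0.46), and NH2, a relative of the salicylic acid receptor NPR1, rose by 0.98 ± 0.13. CERK1, a receptor kinase for chitin, rose by 0.70 ± 0.16, but did not pass without either P-fertilised replicate. SGT1, a co-chaperone of resistance proteins, had a difference of -1.23 ± 0.15, and NPR4 one of -0.83 ± 0.17. There were 2 rises without P-fertilised replicate 2. Of 6 WRKY factor genes 2 rose, WRKY76 (1.96 ± 0.54) and WRKY71 (0.71 ± 0.17), against 1 without P-deficient replicate 1 and 0 without either P-fertilised replicate.

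Oxidative stress genes gave 7 rises and 2 falls among 20 genes (median 0.28). AOX1, the alternative oxidase of mitochondria, read 2058.7 and 3069.6 in P-deficient soil against 257.3 and 229 in P-fertilised soil (3.21 ± 0.20, adjusted p = 1.57e-05). APX8, a chloroplast ascorbate peroxidase gene, read 222 and 187.6 against 21.7 and 18.6 (2.18 ± 0.18), and the superoxide dismutase gene sodCp rose by 1.53 ± 0.19. The secreted peroxidase gene PRX112 read 6.4 and 2 against 704.2 and 859.8 (-4.49 ± 0.32), but its second probe set differed by 0.19. Without P-fertilised replicate 1 there were 4 rises. Among 7 metallothionein genes 1 rose, MT2A, with 4165 and 7018.2 against 1832.5 and 1612.7 (1.64 ± 0.24). That share, 14.3%, was below the 18.9% of all genes. The list median was 0.15, and 0.36 without P-deficient replicate 1.

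Of 6 genes of low-oxygen metabolism 3 fell and 0 rose (median -0.85). NSHB1, a haemoglobin that scavenges nitric oxide, read 174.2 and 468.7 in P-deficient soil against 2326.2 and 2211 in P-fertilised soil (-2.84 ± 0.40, adjusted p = 0.00104). Its relative NSHB2 read 59.5 and 717.4 against 4223.8 and 2900 (-3.75 ± 0.97, adjusted p = 0.019). The fermentation genes Adh2 (930 and 4009.8 against 3900.4 and 3793.7) and PDC1 (251.5 and 1959.6 against 291.6 and 205.3) did not pass. In each of these 3 genes P-deficient replicate 2 read far above replicate 1. Leaving out P-deficient replicate 1 brought the NSHB2 difference to -2.24 (adjusted p = 0.0847), and NSHB2 also did not pass without P-fertilised replicate 1 (adjusted p = 0.1) or 2 (adjusted p = 0.0695). PDC1 passed without P-deficient replicate 1 (2.85, adjusted p = 0.00401) and Adh2 without P-deficient replicate 2 (-2.01, adjusted p = 0.0321). The list median was -0.33 and -1.59 without these arrays.

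Cell wall growth genes were among those with the largest shares of falls in P-deficient soil. Expansins let walls stretch, and xyloglucan enzymes remodel the tethers between cellulose fibres. Of 30 expansin and xyloglucan genes 25 passed the filter, 19 fell (76%) and 0 rose, with a median of -1.72. The beta-expansins named above had the largest falls, and EXP1, an alpha-expansin, read 10.7 and 3.1 in P-deficient soil against 423.2 and 536.7 in P-fertilised soil (-3.72 ± 0.18, adjusted p = 5.46e-06). Of 9 cellulose synthase genes 6 fell and 0 rose (median -1.42). CESA7, CESA4 and CESA9 make secondary walls, and they read 191.9 and 266.9 against 974.7 and 1568.4, 260.7 and 275 against 606.5 and 970.7, and 43.1 and 24.4 against 117.4 and 174. The primary-wall genes CESA3 and CESA8 were also lower, by 1.75 ± 0.22 (adjusted p = 0.000524) and 1.67 ± 0.33 (adjusted p = 0.00566). The arrays of the soils overlapped for CESA1, which read 228.9 and 1040.3 against 1029.5 and 1348.4. Their relatives of the cellulose synthase-like families gave 9 falls and 3 rises among 19 of 20 genes (median -0.42). CSLC3, of a family that builds xyloglucan backbones, had a difference of -2.90 ± 0.16, and CSLA1, of the mannan synthase family, one of -2.88 ± 0.21. CSLA5 of the same family rose by 3.03 ± 0.20.

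**Figure D3:**
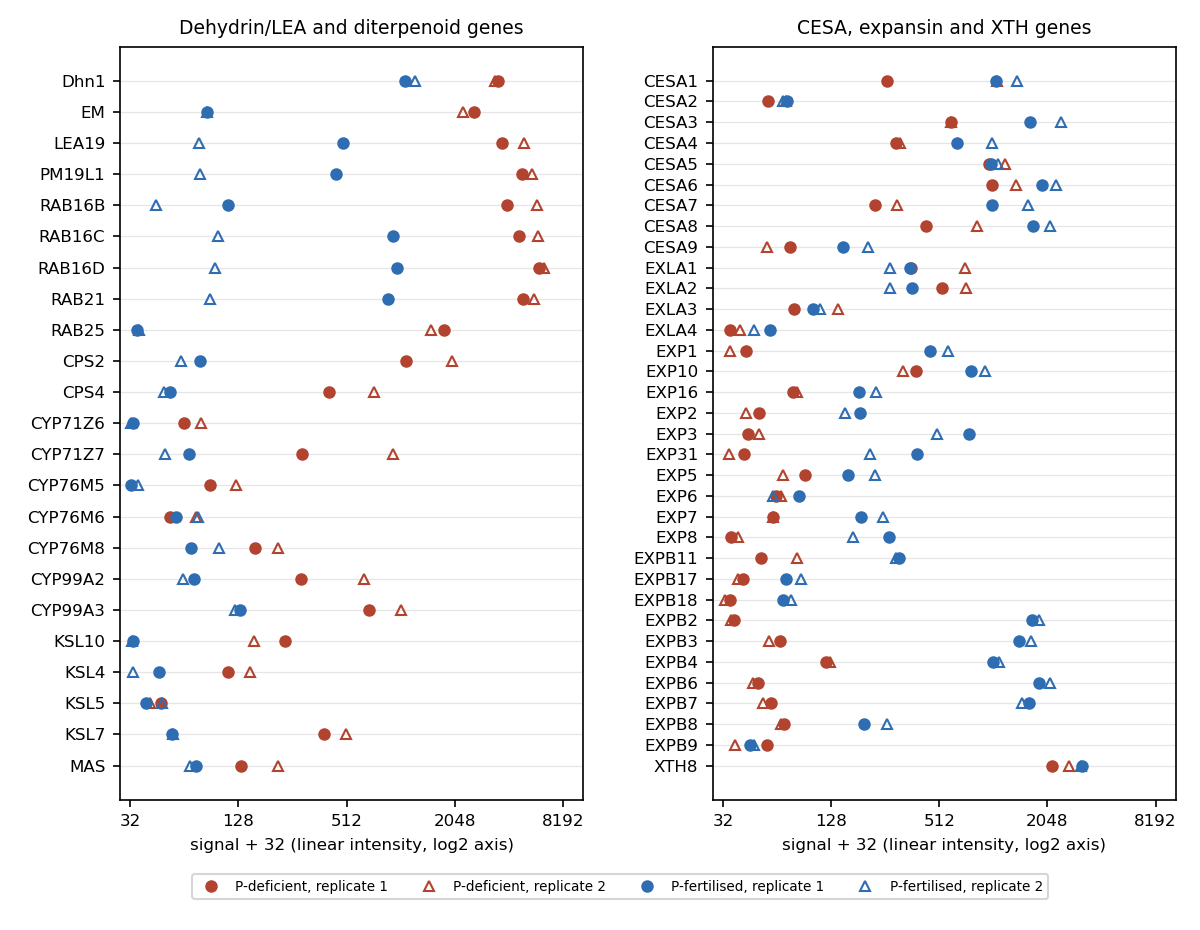
Signal plus 32 on a log2 axis for dehydrin, LEA and diterpenoid genes (left) and for cellulose synthase, expansin and xyloglucan genes past the filter (right), 1 point per array of null segregant roots. On the left nearly all P-deficient arrays lie above the P-fertilised ones, with P-fertilised replicate 1 raised for RAB16C, RAB16D, RAB21, LEA19 and PM19L1, and on the right most genes lie lower in P-deficient soil.

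Barrier and lignin genes fell for 17 of 45 genes past the filter of 49 and rose for 10 (median -0.20). These shares were 37.8% and 22.2%, against 23% and 18.9% of all genes. OsCASP1 fell by 3.44 ± 0.19 (adjusted p = 9.67e-06). The laccase genes LAC3 and LAC4, whose family couples lignin monomers, read 41.1 and 58.1 in P-deficient soil against 768.2 and 974.2 in P-fertilised soil, and 1.1 and 1.1 against 100.7 and 118.3. CAD8A, of the family that makes lignin alcohols, read 36.3 and 58.5 against 1658.1 and 1717.3 (-4.45 ± 0.31). Leaving out either P-fertilised replicate left 5 of the 10 rises.

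Genes of cell division fell far more often than they rose in P-deficient soil. The sums of dividing-tissue genes given above were taken over the kinesin, cyclin and replication lists described here, so they are not separate evidence. Of 32 kinesin motor genes 24 fell (75%) and 0 rose, with a median of -1.16. KIN12C read 23.8 and 28.1 in P-deficient soil against 221.4 and 219.1 in P-fertilised soil (-2.12 ± 0.16, adjusted p = 3.91e-05), and KIN10A read 1.4 and 1.2 against 94.8 and 150.7 (-2.19 ± 0.18). Among cyclins and their kinases 18 of 34 genes fell and 1 rose (median -0.68). The mitotic cyclin CYCB2-2 read 1.7 and 0.9 against 265.4 and 384.3 (-3.40 ± 0.21, adjusted p = 1.51e-05, with a second probe set at -2.1), and CYCB1-1 read 16.9 and 15.5 against 247.8 and 405.6. Replication and histone genes gave 14 falls and 2 rises among 32 (median -0.45). MCM3, of the helicase that opens DNA for replication, read 28.3 and 27.2 against 239.5 and 308.6 (-2.35 ± 0.19), and PCNA, the sliding clamp of DNA polymerase, read 187.3 and 227.5 against 796.7 and 858.1 (-1.85 ± 0.18). Ribosomal protein genes gave 7 falls and 0 rises among 25 (median -0.29), so 28% fell against 23% of all genes. The fall with the smallest p was that of RPL11 (-0.94 ± 0.15). The ribosomal count was 2 without P-fertilised replicate 2, 3 without P-fertilised replicate 1, 4 without P-deficient replicate 1 and 11 without P-deficient replicate 2.

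Auxin genes changed in both directions. Of 56 genes past the filter of 59, 20 fell and 12 rose (median -0.21). Falls made up 35.7% against 23% of all genes, while the rises, 21.4%, were near the 18.9% of all genes. The Aux/IAA repressors IAA13, IAA12, IAA30 and IAA7 fell most clearly. IAA13, a repressor tied to lateral root formation, read 213.9 and 188.2 in P-deficient soil against 2969.8 and 3094.2 in P-fertilised soil (-3.72 ± 0.18, adjusted p = 5.33e-06), and IAA30 read 69.9 and 106.5 against 1542.8 and 1698.3 (-3.80 ± 0.22). GH3-8, which conjugates auxin to amino acids, rose, with 2432.5 and 3254.5 against 334.2 and 374.3 (2.88 ± 0.22, adjusted p = 4.67e-05).

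Cytokinin genes gave 11 falls and 6 rises among 30 of 33 genes (median -0.31). Falls made up 36.7% against 23% of all genes, while the rises, 20%, were near the 18.9% of all genes. LOGL1, of the family that activates cytokinins, read 208.6 and 210.9 in P-deficient soil against 1541.6 and 1240 in P-fertilised soil (-2.55 ± 0.18, adjusted p = 3.27e-05). The cytokinin oxidase genes CKX4 and CKX11 differed by -1.25 ± 0.15 and -1.44 ± 0.19, and the second probe set of CKX11 by 0.07. In jasmonate and ethylene synthesis and response, 11 genes fell and 9 rose among 44 of 47 (median 0.17). These shares, 25% and 20.5%, are near those of all genes (23% and 18.9%). The lipoxygenase gene LOX3 read 14.1 and 4.8 against 216.5 and 190.9 (-2.51 ± 0.18) and AOS4, the next enzyme of the pathway, read 24 and 39.5 against 483.9 and 384.4 (-2.87 ± 0.26). LOX9 rose, with 498.3 and 517.2 against 66.4 and 41.9 (2.66 ± 0.34). The jasmonate and ethylene rises numbered 15 without P-deficient replicate 1 and 4 without P-fertilised replicate 1, and the falls numbered 7 without either P-fertilised replicate. Gibberellin and brassinosteroid genes gave 2 rises and 3 falls among 13. These shares, 15.4% and 23.1%, are near those of all genes (18.9% and 23%). GAMYB, a gibberellin-regulated MYB factor, was higher by 1.10 ± 0.17 and BAK1, a co-receptor kinase, lower by 1.25 ± 0.15. Of 5 strigolactone genes 1 rose, D3 (0.60 ± 0.13), and 0 fell. That share, 20%, was near the 18.9% of all genes. D3 did not pass without P-fertilised replicate 2 (0.54).

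Calcium-linked kinase genes were balanced, with 14 rises and 12 falls among 46 of 51 (median 0.06). These shares were 30.4% and 26.1%, against 18.9% and 23% of all genes. CIPK7 read 2494.8 and 2103.9 in P-deficient soil against 381.8 and 306.3 in P-fertilised soil (2.63 ± 0.24, with a second probe set at 1.37), CIPK19 rose by 2.02 ± 0.16, and CIPK18 read 2.1 and 1.9 against 141.3 and 155.4 (-2.41 ± 0.17). All 3 encode kinases that bind calcineurin B-like calcium sensors. Without P-fertilised replicate 2 there were 8 rises and 6 falls, and without P-deficient or P-fertilised replicate 1 there were 9 rises. Among homeobox genes 6 rose and 7 fell of 32 past the filter of 38 (median -0.06). These shares, 18.8% and 21.9%, are near those of all genes. Hox22, of the HD-Zip family, had the smallest p, with 1220.5 and 661.9 against 18.7 and 15.4 (4.25 ± 0.28, adjusted p = 2.1e-05). Without P-fertilised replicate 2 there were 3 rises and 3 falls. NAC factor genes gave 5 rises and 1 fall among 8 (median 0.54). NAC2 read 250.4 and 388.2 against 37.4 and 60.9 (2.10 ± 0.24) and NAC068 rose by 1.66 ± 0.24. Only 2 NAC genes rose without P-deficient replicate 2, without P-fertilised replicate 1 or without P-fertilised replicate 2.

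Heading had begun in the P-deficient plants, and genes of flowering were set beside this stage. Of 31 MADS-box genes 20 passed the filter, 6 rose and 1 fell (median 0.20). MADS18, which promotes flowering in rice, read 305.1 and 190.5 in P-deficient soil against 64.7 and 52.7 in P-fertilised soil (1.60 ± 0.22, adjusted p = 0.000851), and MADS14, a meristem identity gene, read 87.4 and 97.6 against 24 and 14 (1.29 ± 0.24). The MADS14 probe set may also match other genes. Among 21 flowering-time and clock genes 3 rose and 2 fell (median 0.04). These shares, 14.3% and 9.52%, were below those of all genes (18.9% and 23%). RCN1, listed by its name with the floral repressors, read 1.1 and 1.7 against 327.6 and 358.1, a difference of -3.49 ± 0.15 (adjusted p = 2.77e-06). Genes may share a name, and the identity of this gene was not checked. Of 4 chlorophyll breakdown genes 1 rose, RCCR1 (0.81 ± 0.16), against 3 without P-deficient replicate 2 and 0 without P-fertilised replicate 2. The chlorophyll breakdown rise was 25% of its list, against 18.9% of all genes. Of 16 green-tissue genes past the filter of 22, 2 rose and 1 fell (median 0.09). These shares, 12.5% and 6.25%, were below those of all genes. The flowering-time rises numbered 1 without either P-fertilised replicate and 5 without P-deficient replicate 2, and the falls 4 without P-deficient replicate 1. Of the green-tissue genes 0 rose without P-deficient replicate 1 or P-fertilised replicate 2.

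**Figure D4:**
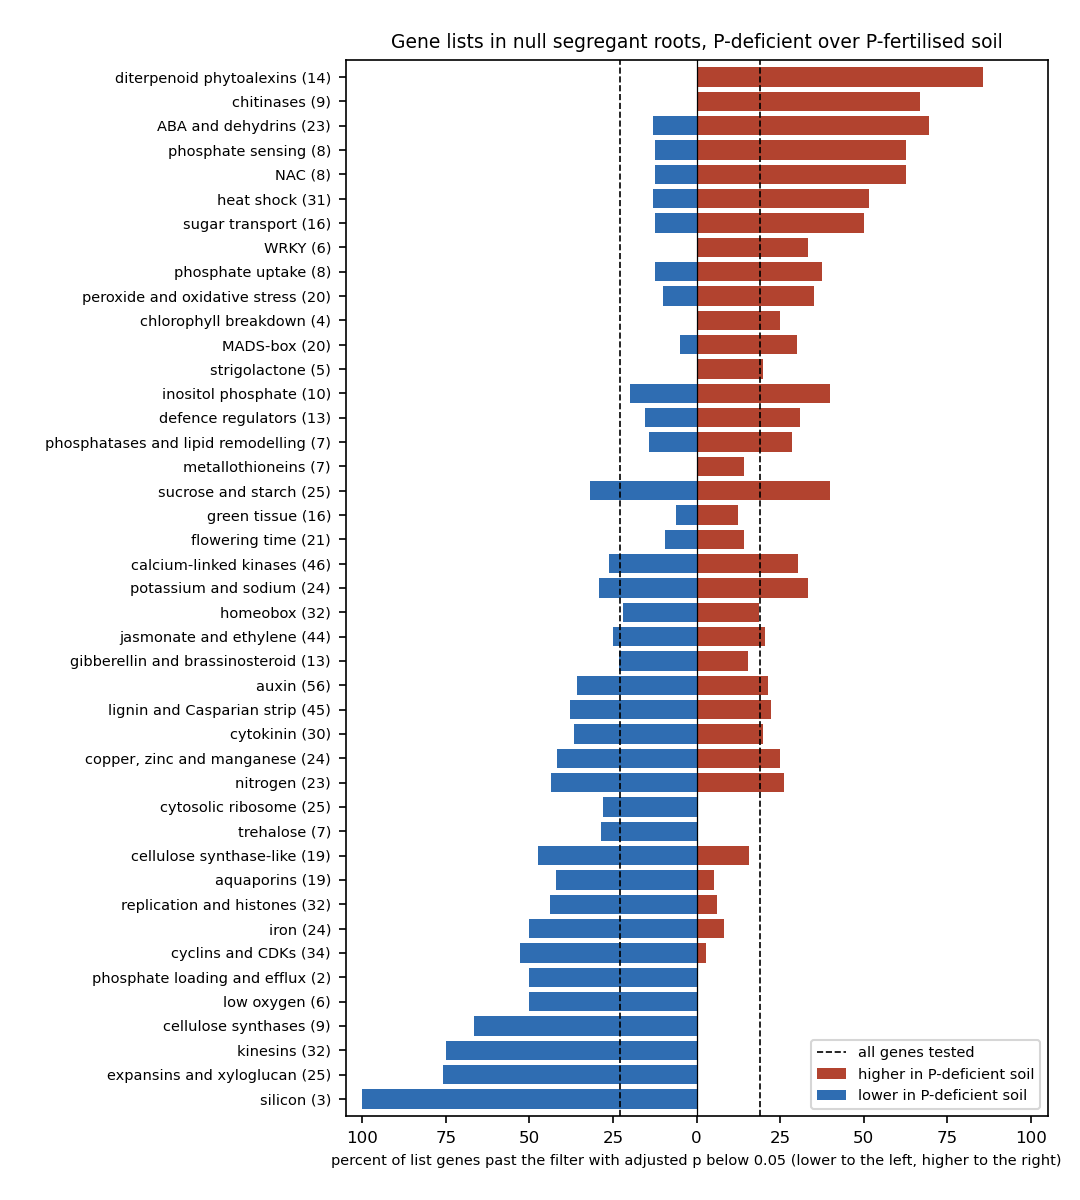
Percent of the genes past the filter that passed the test in each gene list, higher in P-deficient soil to the right and lower to the left, with the number of genes past the filter in parentheses and dashed lines at 18.9% higher and 23% lower for all genes tested. Diterpenoid, chitinase and ABA lists reach furthest to the right and silicon, expansin and kinesin lists furthest to the left.

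The soil difference of null segregants was set beside that of transgenic roots. The means share no array, but the spread behind both sets of calls was pooled over all 8, so the calls are not independent of each other. In transgenic roots 12235 probe sets differed (35.7%), 5304 higher and 6931 lower. Of the 11166 probe sets called in null segregants, 8891 were also called in the same direction in transgenic roots, which is 79.6% of the null segregant calls and 72.7% of the transgenic calls, and 16 were called in opposite directions. The sign was the same for 97.5% of the null segregant calls, and for 93.7% the transgenic arrays of the soils did not overlap, in the same direction. The same shares over all tested probe sets are not given here, so these values have no background beside them. Separated arrays were common in null segregants, with 35.6% of all genes higher and 37.5% lower. SPX5 rose by 3.03 in null segregants and 2.22 in transgenic roots, PHT1-2 had a difference of -2.13 in both, SWEET12 rose by 5.93 and 6.27, and EXPB2 differed by -5.61 and -4.90. A test of the difference between the genotypes (the interaction) called 0 of 34316 probe sets (0%), with 2032 at an unadjusted p below 0.05. It called 140 without the second transgenic array of P-deficient soil, and at most 4 without any other single array.

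The smallest interaction p belonged to BURP2, a gene of the plant-specific BURP-domain family, which did not pass. In null segregants it read 71.6 and 83.6 in P-deficient soil against 2775.9 and 1425 in P-fertilised soil, a difference of -4.21 ± 0.28. In transgenic roots it read 940.3 and 1206.4 against 1409.8 and 1380.8, a difference of -0.38. The interaction was -3.83 ± 0.40 (adjusted p = 0.123), and the second probe set of BURP2 differed by -2.17 in null segregants. The next on that side, SRP14, RAC7, S1FA and TIM13, had interactions of -1.22, -0.86, -0.77 and -1.31, with adjusted p from 0.542 to 0.829. On the other side GLN1-1, a cytosolic glutamine synthetase gene, read 618.5 and 1418.8 against 2639.7 and 2687.4 in null segregants and 143.2 and 260.8 against 2043 and 2335.7 in transgenic roots. Its interaction was 1.82 ± 0.51 (adjusted p = 0.829). SAP7, eIF-4A-1, MAN4 and MADS50 had interactions of 1.52, 0.82, 0.93 and 0.80 at the same adjusted p, so none of these 10 genes passed. Failing this test does not show that the genotypes respond alike. The actin ratio of 3-prime to 5-prime signal was 12.7 and 15.3 on the P-deficient null segregant arrays, while the P-deficient transgenic arrays had 682 and 588. One GAPDH pair had 1.15 and 1.21 against 198 and 3.05 on the same arrays. The other GAPDH pair had 2.63 and 5.08 against 4.55 and 5.62, and cyclophilin 1.62 and 3.2 against 8.81 and 2.84. The part of these ratios in the interaction was not tested.

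**Figure D5:**
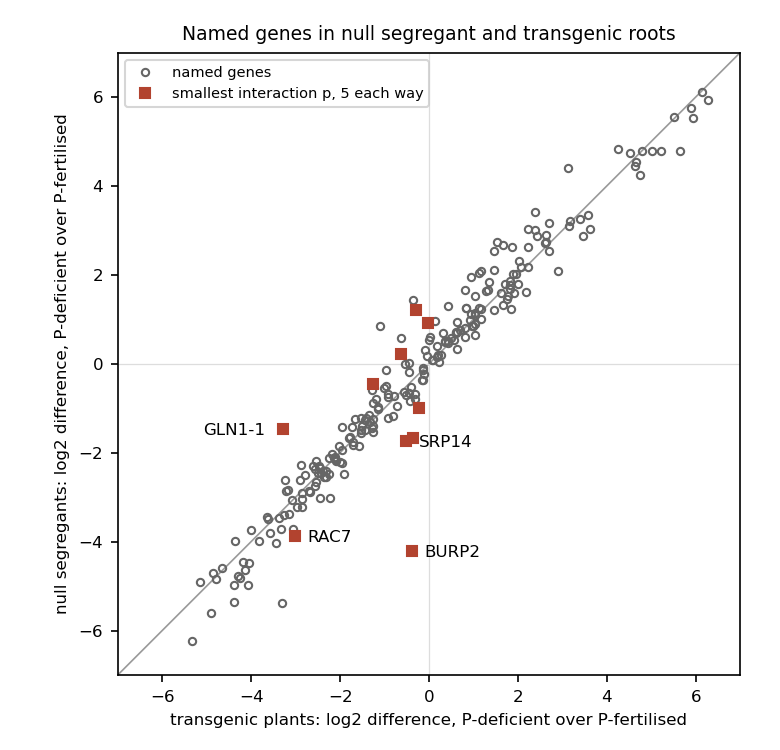
Log2 difference, P-deficient over P-fertilised soil, of each named gene in null segregant roots (vertical axis) and in transgenic roots (horizontal axis), with the diagonal of equal differences. Filled squares mark the 5 genes each way with the smallest interaction p, of which BURP2 lies furthest from the diagonal at -4.21 in null segregants and -0.38 in transgenic roots.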

How the data were processed

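Root RNA of 8 samples was hybridised to an Affymetrix rice array. The authors deposited 1 linear intensity per probe set and array, made with GCOS, as the submitters' processing notes name it. No GCOS version or setting is given in the sources used here. The trimmed mean of each array, with 2% left out at each end, was 100.01 to 100.02, so the deposited intensities share 1 scale, and 0 columns stayed unmapped. The number of arrays limits the precision.

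Control probe sets were left out. Intensities were kept as deposited, 32 was added and log2 taken, and the 40% of probe sets with the lowest mean over the 8 arrays were left out. The tool was limma 3.58.1 under R 4.3.3, with a 4-group model (lmFit, then eBayes with a trend), and p-values were adjusted by Benjamini-Hochberg over all 34316 probe sets with a threshold of 0.05. The procedure was tested on simulated data. A fold change understates the change of dim genes. The titles call the replicates biological but do not say whether they came from separate plants. The p-values thus measure the spread between these arrays, part of which may be technical.

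Probe sets were named by the platform annotation, updated through RefSeq's gene table. A gene was read by its probe set with the highest mean. Those with 1 gene numbered 22436, and 95 had several. No sequences were used here. The 43 gene lists and the members were chosen with earlier results of these data known. Named were the 12 largest differences each way among genes with a literature name, adjusted p below 0.05 and no overlap of the soils' arrays. Also named were up to 5 members of each list with the smallest p and the phosphate genes whatever their value. Up to 5 genes each way in the interaction were named too. Alternatives were the pseudocount, normalization, filter, 4 arrays alone, the replicate block, the trend and leaving out each array.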

Additional observations from a re-analysis of the deposited data

How the results depend on the processing

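The count of 11166 probe sets was 10059 and 11255 with pseudocounts of 1 and 100, 11367 after quantile normalization and 11023 after median centring. It was 10707 without a filter, 9651 with 60% left out and 11120 without a trend. With the 4 null segregant arrays alone it was 9177. In that fit SPX4, PHR3, PHT1-8 and IPK1 did not pass (adjusted p = 0.0682, 0.0749, 0.0545 and 0.0513). The phosphate sensing list then gave 4 rises and 0 falls. Leaving out 1 array gave 6821 to 11111 in all, 2885 to 5284 higher, 3936 to 5901 lower, 173 to 204 of the named genes and 338 to 471 list members. The interaction gave 0 under all alternatives that kept the 8 arrays and 0 to 140 when 1 was left out. For the soils compared, replicate numbers did not pair the null segregant samples by this check, since deviations of same-numbered samples correlated at -0.071. Between genotypes the correlation was -0.261 for the P-deficient arrays and 0.21 for the P-fertilised arrays, and the other 3 pairs of groups gave -0.103 to 0.014, so a shared origin of same-numbered P-fertilised samples was not settled. The replicate block gave 10333 calls.

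The signs that turned were these. Quantile normalization gave 0.03 for PHT1-3, -0.13 for MT4C, -0.19 for MT4A and -0.13 for the metallothionein median. Pseudocount 1 gave 0.02 for PHT1-3. Median centring gave -0.01 for PHR1, -0.04 for PHO1-3, -0.01 for the calcium-linked kinase median and -0.03 for the flowering-time median, and leaving out 60% gave -0.36 for the strigolactone median. Leaving out 1 array gave log2 differences from -0.3 to 0.28 for PHT1-3, -2.01 to 0.06 for Adh2, -0.09 to 0.77 for WRKY24, -0.15 to 1.31 for NYC1, -0.23 to 0.41 for PHT1-1, -0.18 to 1.89 for PHT1-11, -0.16 to 0.21 for PHO1-3, -0.21 to 0.56 for TPP9, -0.16 to 0.54 for CCD7, -0.11 to 0.42 for MT4A and -0.01 to 0.11 for PHR1. List medians ranged from -0.21 to 0.2 for gibberellin and brassinosteroid, -0.07 to 0.13 for calcium-linked kinases, -0.04 to 0.16 for green tissue, -0.16 to 0.54 for strigolactone, -0.03 to 0.36 for metallothioneins and -0.04 to 0.11 for flowering time. The cause was not tested. Signals near the floor limit the size of a difference.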

Other observations

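P-fertilised replicates differed in dehydrin signal in both genotypes. RAB16C read 897.8 and 67 in null segregants and 500.4 and 43.4 in transgenic roots of that soil, and PM19L1 read 416.6 and 46.2 and 190.7 and 41.7. In each genotype the array numbered 1 was the higher. Of the tested probe sets, 1059 differed by more than 1 on the log2 scale between the P-deficient null segregant replicates and 227 between the P-fertilised ones.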
